A study of Thermothelomyces thermophilus ATCC 42464 with 4 samples.

Results

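A group of 400 cytosines was clearly methylated in both wild-type (WT) libraries of the thermophilic fungus Myceliophthora thermophila and stood in neither list of methylated cytosines from strain ΔlaeA. The data are whole-genome bisulfite sequencing of mycelium, in which bisulfite turns unmethylated cytosine into uracil while methylated cytosine is still read as C. There were 2 libraries of ΔlaeA and 2 of WT, all from cultures given glucose for 24 h. In ΔlaeA the study's methods describe a null strain whose laeA coding region was exchanged for a drug resistance cassette, its genotype label calls it a knockdown, and WT carries the intact gene. Nothing in the labels says whether the replicates were separate cultures, so the spread between them may be technical.

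The members were chosen by their measured values. A cytosine qualified as a clear WT site when both WT lists held it with at least 30 reads and a methylation level of at least 15% in each, the level being the methylated share of its reads. Of 532050 clear WT sites, 400 were in neither ΔlaeA list, and 521682 were in both and are called kept sites here. A further 2858 were absent from ΔlaeA replicate 1 only and 7110 from ΔlaeA replicate 2 only. The 400 unlisted sites made up 0.0752% of the clear WT sites (95% Wilson interval 0.0682 to 0.0829%, counting error only), and over the 4 libraries 2693648 cytosines were listed at least once. Because the rule read the contrast between the strains, the difference between them at these sites is a description and carries no test.

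LaeA is a putative methyltransferase that was first known as a global regulator of secondary metabolism in Aspergillus. In filamentous fungi such as Neurospora crassa, cytosine methylation gathers in relics of transposons mutated by a genome defence, lies in every sequence context, and is laid down where histones carry a repressive lysine methylation. Cytosines are sorted here into the CG, CHG and CHH contexts, where H is any base but G. In CG and CHG the opposite strand holds a cytosine of its own a few bases away, whereas CHH has no such partner.

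The lists hold called cytosines and not all cytosines, with no level under 5%, no depth under 5 reads and no site with fewer than 2 methylated reads. Absence of a cytosine from a list can therefore mean that it was unmethylated, that its level was too low, or that reads over it were few or lacking. ΔlaeA replicates 1 and 2 listed 2020637 and 1899567 cytosines at median depths of 56 and 47 reads, against 2020698 and 2044100 at 55 and 59 reads in WT replicates 1 and 2. The library with fewest reads per site, ΔlaeA replicate 2, also lacked the most clear WT sites. In the annotated laeA body the lists held 62 and 25 cytosines in ΔlaeA, at median depths of 23.5 and 11 reads, against 2 and 1 in WT, so the lists alone do not show how much of the gene remained. Neither a member nor any other clear WT site lay in laeA or within 1 kb of it.

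Most of the unlisted sites stood alone. Sites less than 500 bp apart were joined into loci, which gave 378 loci, of which 360 held a single site, 15 held 2 sites and 3 held 3 or more, with 4 sites at most. The same rule with the strains exchanged, which asks for clear ΔlaeA sites in neither WT list, found 187 of 456181 sites in 168 loci. The members were 0.0752% of clear WT sites and this exchanged set 0.0410% of clear ΔlaeA sites. WT had the deeper libraries on average, so the counts of the 2 directions do not rest on equal depth.

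By context, 77 of the 400 sites were CG (19.3%), 51 were CHG (12.8%) and 272 were CHH (68.0%). Among kept sites the shares were 7.32%, 10.3% and 82.3% in the same order. Per 10000 clear WT sites, 19.5 CG sites were unlisted in ΔlaeA, 9.25 CHG sites and 6.22 CHH sites. The rate was thus highest in CG, which was the rarest context among clear WT sites. The exchanged set had a raised CG share as well, with 25 of its 187 sites (13.4%) against 7.30% of the clear ΔlaeA sites that both WT libraries listed. Whether the CG share of the members and that of the exchanged set differ was not tested. The strands of the genome were alike, with 49.3% of the unlisted sites on the plus strand and 50.2% of the kept sites there.

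The members sat low in the range of WT levels. Their pooled WT level had a median of 17.8% and ran between 15.1% and 30.9%, while the median of the kept sites was 24.2%. In WT replicate 1 the levels ran between 15% and 36.7% with a median of 17.5%, and in WT replicate 2 between 15% and 45.7% with a median of 17.5%. The 2 WT libraries lay within 5 percentage points of each other at 321 of the 400 sites and over 10 points apart at 15. A pooled level of at least 20% was found at 88 unlisted sites, at least 25% at 10 and at least 30% at 1, which is 22%, 2.50% and 0.25% of them, against 76.5%, 46.2% and 26.5% of kept sites.

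**Figure D1:**
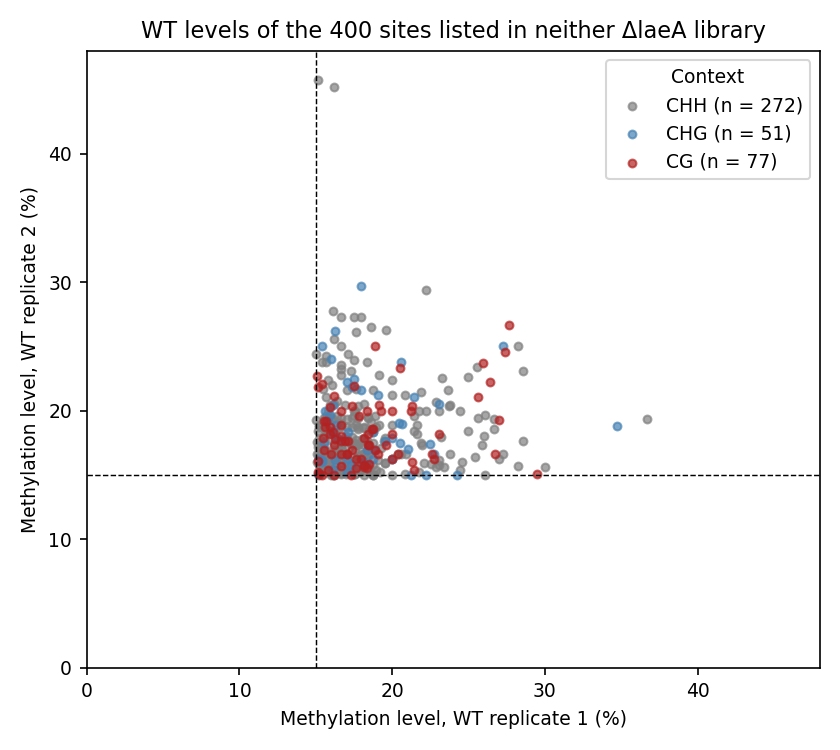
Methylation level (%) of each of the 400 sites in WT replicate 1 (x axis) and WT replicate 2 (y axis), coloured by context, with dashed lines at the 15% minimum of the rule. The points crowd the corner at 15%, with medians of 17.5% on both axes, and 2 CHH sites stand above 45% in replicate 2 only.

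Many sites sat just above the minimum level. The lower WT level was under 16% at 148 sites and under 20% at 369. Just inside the rule, a CG site on chromosome 1 at position 7399475 had 15.4% and 15% in WT replicates 1 and 2, and the sites on the same chromosome at 2412654 (CHG) and 7158515 (CHH) had 21.2% and 15%, and 20% and 15%. Just outside it, a CG site on chromosome 6 at position 3107697 had 16.1% and 14.9%, and CHH sites on chromosome 6 at 373214 and chromosome 5 at 1766621 had 19.2% and 14.9%, and 15.4% and 14.9%. Between 14% and 15%, 227 further sites of sufficient depth were in neither ΔlaeA list, so the number of members depends on where the line was drawn.

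As the WT level went up, the share of sites that ΔlaeA did not list went down steeply. With the lower WT level at 5 to 7.5%, 14.7% of WT sites with at least 30 reads were in neither ΔlaeA list, and with 10 to 12.5% the share was 1.88%. Above the minimum of the rule, 294 of 132476 sites at 15 to 17.5% were unlisted, 75 of 94043 at 17.5 to 20%, 28 of 132912 at 20 to 25% and 3 of 76328 at 25 to 30%. None of the 96291 sites at 30% or more in both WT libraries was missing from both ΔlaeA lists. The 400 sites thus lie at the upper end of a gradient that ran without a break through the 15% line.

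CG sites were the context most often unlisted at every WT level examined below 30%. At 15 to 17.5%, 46.9 CG sites, 26.9 CHG sites and 18.9 CHH sites per 10000 were in neither ΔlaeA list. At 20 to 25% the numbers were 8.27, 2.18 and 1.55. The larger CG share among the members was therefore present at matched WT level. The listing limit was not matched, since it differed by context at lower depth. At 30 reads the lowest level in both ΔlaeA lists was 10% in CG and 6.67% in CHH. At 50 and 60 reads it was 6% and 5% in both contexts. How far this limit made the CG share was not tested.

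**Figure D2:**
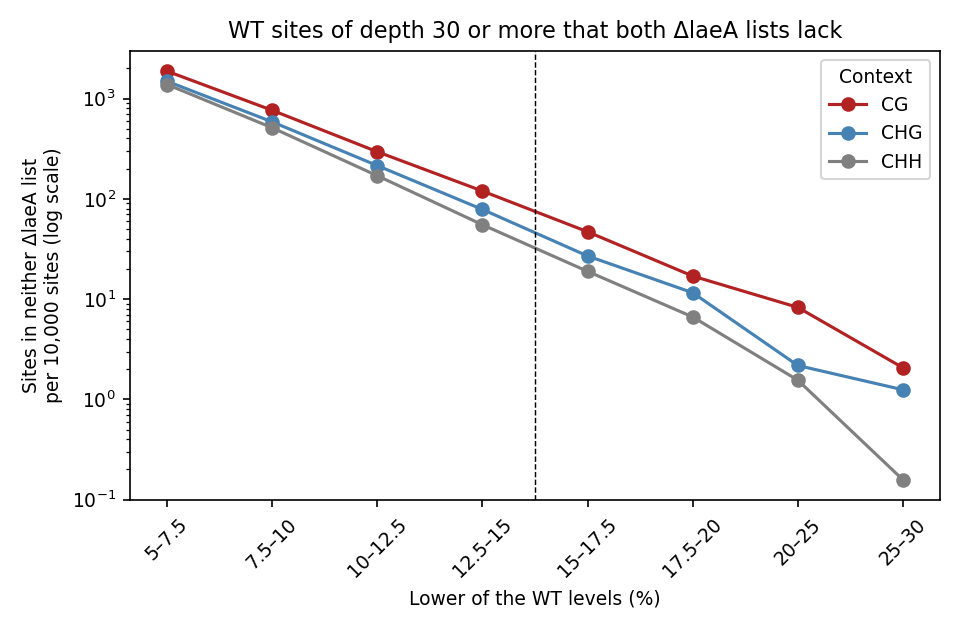
WT sites with at least 30 reads in both WT libraries that are in neither ΔlaeA list, per 10000 such sites (y axis, log scale), by the lower of the WT levels in % (x axis) and by context; the dashed line is the 15% minimum. CG lies above CHG and CHH in each bin, from 46.9 per 10000 at 15 to 17.5% to 2.07 at 25 to 30%, where each context holds 1 unlisted site; the bins at 30% and above hold none and are not drawn.

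The share also went down with WT depth. Per 10000 clear WT sites, 15.2 were unlisted in ΔlaeA where the lower WT depth was 30 to 39 reads, 9.51 at 40 to 49, 4.90 at 50 to 59 and 2.75 at 60 or more. At 15 to 17.5% the number was 53.3 per 10000 at 30 to 39 reads and 8.49 at 60 or more reads. The unlisted sites were accordingly somewhat shallower in WT, at median depths of 46 and 49 reads in replicates 1 and 2, against 53 and 57 reads at kept sites. How far sampling of reads made the members was not tested.

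The reads around the sites show what the ΔlaeA libraries could have seen. Neighbours are listed cytosines within 50 bp on either strand, and 397 of the 400 sites had listed neighbours in both ΔlaeA libraries, so only 3 lacked them in 1 or both. Local depth, the median depth of neighbours on the same strand, had a median of 45 reads in ΔlaeA replicate 1 (lowest 19, highest 103) and 38 in ΔlaeA replicate 2 (lowest 14, highest 77), against 46.3 and 48.8 reads in WT replicates 1 and 2. In a draw of 20000 kept sites a cytosine's own depth lay between 0.90 and 1.11 times the local depth in 90% of cases in ΔlaeA replicate 2. Neighbours were thus a close guide to depth at listed cytosines. The members have no depth of their own in ΔlaeA, so this could not be checked for them. Covered DNA with listed cytosines thus surrounded nearly all of the sites in both ΔlaeA libraries.

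From that depth follows a ceiling for the level an unlisted site can have. At the local depth and context of each site, the lowest level that ΔlaeA replicate 1 listed had a median of 6.25%, and 7.32% in ΔlaeA replicate 2. With 1 methylated read fewer, the highest level that escapes listing had a median of 4.17% in ΔlaeA replicate 1 (2.50 to 6.67%, n = 394 sites) and 4.76% in ΔlaeA replicate 2 (3.03 to 8.33%, n = 395 sites). At the 392 sites with a ceiling in both ΔlaeA libraries, the pooled WT level had a median of 17.8%. The ceiling assumes that a site had the depth of its neighbours and that the lists hold every cytosine past the limits. Since the sites were picked for a high WT level and for absence in ΔlaeA, the gap between ceiling and WT level is largely set by the choice.

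**Figure D3:**
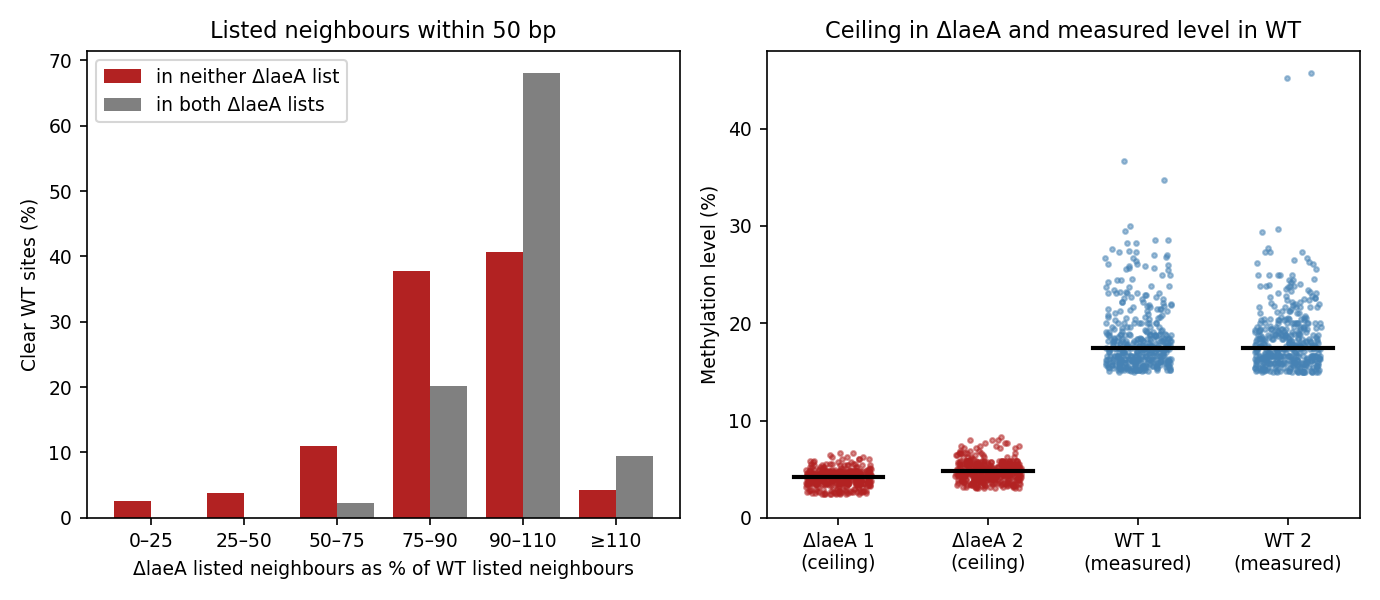
Left, share (%) of unlisted sites (red, n = 400) and of kept sites (grey, n = 521680) by the number of listed neighbours within 50 bp in ΔlaeA as a percent of that in WT. Right, the highest level (%) an unlisted cytosine could have at the local depth in ΔlaeA replicates 1 and 2 (red, n = 394 and 395 sites) and the measured level in WT replicates 1 and 2 (blue, n = 400), with the median as a bar: 4.17% and 4.76% in ΔlaeA against 17.5% and 17.5% in WT.

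The DNA around the sites stayed methylated in ΔlaeA at most of them. Listed neighbours numbered 20 and 19 at the median site in ΔlaeA replicates 1 and 2, against 22 and 22 in WT. In percent of the WT number, ΔlaeA kept a median of 87.8% of the neighbours of unlisted sites and 97.3% of those of kept sites. Between 90 and 110% was kept around 163 of the 400 sites (40.8%), against 68.1% of kept sites. Between 50 and 75% was kept around 44 (11%), against 2.25% of kept sites. Under 50% was kept around 25 (6.25%, Wilson interval 4.27 to 9.06%), against 209 of 521680 kept sites (0.0401%). Listing depends on depth, and median local depth was lower around unlisted sites than around the 20000 kept sites drawn. In ΔlaeA replicates 1 and 2 it was 45 and 38 reads, against 55 and 45. In WT replicates 1 and 2 it was 46.3 and 48.8 reads, against 53.5 and 56.5. Fewer listed neighbours around an unlisted site also describe the same contrast that the rule read, so no test was made.

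Neighbours that all 4 libraries listed had lower median levels in ΔlaeA. Around the 390 unlisted sites that had such neighbours, their pooled level had a median of 15.9% and 16% in ΔlaeA replicates 1 and 2, against 18.2% and 18.6% in WT replicates 1 and 2. The median difference, ΔlaeA minus WT, was -2.29 percentage points around unlisted sites and -0.64 points around kept sites. Both ΔlaeA libraries lay below both WT libraries around 51.3% of unlisted sites and 26.8% of kept sites, and above both around 3.08% and 12.2%. These neighbours lie close to sites that the rule picked by the same contrast and can share reads with them. The difference is therefore a description, and no test was made.

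Opposite-strand partners were less often listed for unlisted sites than for kept sites in both strains. Both ΔlaeA libraries listed the partner of 35 of the 77 CG sites (45.5%) and both WT libraries that of 42 (54.5%), against 61.8% in ΔlaeA and 65.0% in WT at kept CG sites. Of the 51 CHG sites, 15 (29.4%) had a partner in both ΔlaeA lists and 20 (39.2%) in both WT lists, against 57.6% and 59.7% at kept CHG sites. Of the 42 CG members with a partner in both WT lists, 5 had it in neither ΔlaeA list, against 805 of 24843 such kept CG sites. Of the 20 such CHG members it was 4, against 547 of 32201 such kept CHG sites. These partners lie beside sites that the rule picked by the same contrast, and no test was made. No partner was itself a member. None of these pairs thus had both of its cytosines among the members, and the partners of members were scarcer than those of kept sites in WT as well.

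All 400 sites lay in methylated blocks, as did 521668 of the 521682 kept sites. Blocks are runs of 1-kb windows with at least 10 listed cytosines in both WT libraries. Blocks of at least 20 kb held 318 sites (79.5%) and 77.1% of kept sites, and blocks of up to 3 kb held 16 (4%) and 2.80%. Within 1 kb of a block border lay 43 sites (10.8%) and 7.46% of kept sites. By block size the members were thus placed much as the kept sites were, with a somewhat larger share near borders.

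By chromosome the number per 10000 clear WT sites ran between 4.64 on chromosome 2 and 9.52 on chromosome 6. Of 277 stretches of 100 kb with clear WT sites, 167 held at least 1 member. The fullest was chromosome 1 from 2900001 to 3000000 with 12 members, or 27.6 per 10000. It was followed by chromosome 3 from 2100001 to 2200000 with 9 (34.9 per 10000) and chromosome 4 from 1300001 to 1400000 with 9 (29.5 per 10000). The 16 stretches of 100 kb with 5 or more members held 108 of the 400 members and 47423 of the 532050 clear WT sites. They were picked by their number of members, which in part sets their larger share.

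Genes held few of the sites. Inside an annotated gene lay 15 of the 400 (3.75%, kept sites 3.25%), and 61 (15.3%, kept sites 10.6%) lay in a gene or within 1 kb of one. The 15 sites fell in 9 protein-coding genes, of which MYCTH_2135745 on chromosome 6 and MYCTH_62778 on chromosome 1 held 3 each. Of 11 regulators and enzymes named by the study, 10 had no clear WT site in the gene or within 1 kb of it, so that no member was possible there, and clr-1 had 1, which was not a member. The 11 were laeA, cre-1, a carbon catabolite repressor, the growth regulatory factor genes grf-1 to grf-3, pck and fbp, enzymes of gluconeogenesis, laeB, and clr-1, clr-2 and xlnR, known from Neurospora and Aspergillus as activators of cellulase and xylanase genes. No locus had 3 or more members inside a gene.

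In MYCTH_2135745 the members were scattered and the DNA beside them stayed methylated. Its CG site at position 3383684 had 16.7% and 20% in WT replicates 1 and 2, with 30 and 33 listed neighbours in ΔlaeA against 35 and 38 in WT. Its CG site at position 3384307 had 15.9% and 18.8% in WT, with 36 and 32 neighbours in ΔlaeA against 35 and 31 in WT. Its CHH site at position 3388684 had 25.9% and 17.3% in WT, with 17 and 17 neighbours in ΔlaeA against 21 and 18 in WT. Each of these sites thus kept at least 17 listed neighbours in both ΔlaeA libraries.

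The 10 members with the highest mean WT level, among those with a neighbour of at least 20 reads in both ΔlaeA libraries, were of several kinds. At 2 of them the WT libraries themselves disagreed widely. The CHH site on chromosome 1 at position 2787931 had 6 of 37 reads methylated in WT replicate 1 (16.2%) and 14 of 31 in WT replicate 2 (45.2%). The CHH site on chromosome 1 at position 5261369 had 5 of 33 (15.2%) and 16 of 35 (45.7%). These 2 sites were thus near the minimum in 1 WT library and high in the other.

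At the first of them the surroundings were as methylated in ΔlaeA as in WT, at a pooled neighbour level of 41.2% and 34.8% in ΔlaeA against 35.9% and 40.8% in WT, with 25 and 24 neighbours against 25 and 24. Its local depth was 47 and 17 reads in ΔlaeA, and the 17 reads in ΔlaeA replicate 2 were the lowest local depth among the 10 sites, where the lowest level listed was 11.8%. At the second, ΔlaeA listed 12 and 15 neighbours against 22 and 26 in WT. The 2 sites thus differ in their surroundings.

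High levels in both WT libraries were found at the CG site on chromosome 1 at position 2931770, with 13 of 47 reads (27.7%, Wilson interval 16.9 to 41.8%) and 12 of 45 (26.7%, 16 to 41.0%). Its local depth was 41 and 33.5 reads in ΔlaeA, and the lowest levels listed at those depths were 7.32% and 8.82%. Its neighbours had pooled levels of 15.8% and 15.4% in ΔlaeA, against 21.5% and 19.6% in WT. The neighbours were thus listed in number, 24 and 26 in ΔlaeA against 29 and 30 in WT, at lower levels, while the site itself was unlisted.

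Similar pairs of WT levels were seen at the CHH site on chromosome 6 at position 2490493, inside MYCTH_2069363, with 28.3% and 25%. The CHG site on chromosome 3 at position 131140 had 27.3% and 25%. The CG site on chromosome 5 at position 1509601 had 27.4% and 24.5%. Their listed neighbours differed in how far they were kept. On chromosome 3 ΔlaeA listed 13 and 16, against 25 and 26 in WT, on chromosome 6 it listed 18 and 15, against 19 and 19, and on chromosome 5 it listed 27 and 20, against 31 and 27.

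Local depths in ΔlaeA at these 3 sites ran between 32.5 and 49 reads. Local depth was under 30 reads in both ΔlaeA libraries at 3 others, the CHH sites on chromosome 4 at positions 76881 and 1394237 and on chromosome 6 at 2055640. At 76881, with 28.6% and 23.1% in WT, the local depth was 20 and 21.5 reads in ΔlaeA, and ΔlaeA listed 9 and 7 neighbours, against 12 and 13 in WT. At 1394237, with 22.2% and 29.4% in WT, it was 23 and 29 reads in ΔlaeA, with 21 and 21 neighbours, against 25 and 23 in WT. The site at 2055640, with 36.7% and 19.4% in WT, was high in WT replicate 1 and had a local depth of 28 and 24 reads in ΔlaeA, with 15 and 14 neighbours, against 15 and 18 in WT.

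The last of the 10, a CHG site on chromosome 6 at position 3594194, had 34.7% and 18.8% in WT and 18 and 13 listed neighbours in ΔlaeA, against 26 and 23 in WT. In percent of the WT number, the 10 sites kept between 56.3% and 100% of their listed neighbours, and 4 of them kept under 75%, as did 69 of all 400 members (17.3%). The sites of highest WT level thus ranged widely in how far the surrounding cytosines were still listed.

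The locus with most members lay on chromosome 6 from 1622127 to 1622831, in a block of 48 kb and 9342 bp from the nearest gene, MYCTH_2070469. All 4 of its sites were CHH, with a mean WT level of 18.0%. Around them ΔlaeA listed 167 and 164 other cytosines, against 195 and 202 in WT. At the 121 cytosines that all libraries listed, the pooled level was 13.9% and 15.5% in ΔlaeA, against 18.3% and 19.3% in WT. Of its 68 clear WT sites, 4 were unlisted, so the locus was less methylated in ΔlaeA as a whole and mostly still listed.

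The other loci with 3 sites were on chromosome 6 from 3293890 to 3293919, a CHH, a CG and a CHG site near MYCTH_61336, and on chromosome 4 from 1336665 to 1336866, a CHH and 2 CG sites near MYCTH_95224. At the chromosome 6 locus ΔlaeA listed 12 and 12 other cytosines, against 22 and 27 in WT. At the chromosome 4 locus ΔlaeA listed 65 and 59, against 81 and 86 in WT, and the pooled level at shared cytosines was 14.7% and 13.2% in ΔlaeA against 21.7% and 25.3% in WT. The chromosome 6 locus thus kept a smaller share of its listed cytosines than the chromosome 4 locus, where most stayed listed at lower levels.

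Loci of 2 sites were as varied. On chromosome 7 from 1389057 to 1389065, near MYCTH_2316515, ΔlaeA listed no other cytosine within 50 bp of the 2 CG sites, while WT replicates 1 and 2 listed 13 and 19. On chromosome 1 from 338862 to 338979, near MYCTH_2052384, ΔlaeA listed 67 and 64 around 2 CHH sites, against 74 and 68 in WT. On chromosome 5 from 91302 to 91310, near MYCTH_96309, ΔlaeA listed 34 and 33 around a CG and a CHH site, against 37 and 32 in WT. The first had no listed neighbour left in ΔlaeA, and around the other 2 the strains listed similar numbers.

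Among the remaining named pairs, chromosome 4 from 1394115 to 1394237, near MYCTH_2306185, had a pooled level at shared cytosines of 22.6% and 20.8% in ΔlaeA against 32.2% and 31.9% in WT. The pair on chromosome 3 from 2160203 to 2160403, near MYCTH_2118258, had 8.98% and 10.5% in ΔlaeA against 17.8% and 12.3% in WT. At both pairs ΔlaeA lay below WT in each library, which was so at 191 of the 370 loci with shared cytosines (51.6%), while 12 loci lay above in both ΔlaeA libraries and 167 overlapped. Around kept sites, neighbours within 50 bp lay below WT without overlap in 26.8% and above it in 12.2%. Over all 1-kb windows tested across the genome the shares were 36.6% and 11.4%, and over windows with a member 53.9% and 2.96%. A window spans more DNA than most loci, so shares of windows and of loci are not like for like. At the pairs on chromosome 4 from 76881 to 76888 (near MYCTH_2305754), chromosome 3 from 2785598 to 2785600 (near MYCTH_2060489), chromosome 5 from 124682 to 124693 (near MYCTH_2307892) and chromosome 5 from 3980442 to 3980476 (near MYCTH_2129465), ΔlaeA listed between 8 and 36 other cytosines, against between 12 and 41 in WT. Shared levels overlapped between the strains at 76881, with 15.9% and 17.3% in ΔlaeA against 20.3% and 16% in WT, and on chromosome 3, with 21.7% and 16.4% in ΔlaeA against 18.0% and 21.1% in WT. They did not overlap at the chromosome 5 pairs, with 21.7% and 24.2% in ΔlaeA against 26.5% and 31.1% in WT at the first and 15.4% and 18.0% in ΔlaeA against 21.3% and 22.1% in WT at the second.

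The 25 sites that kept under 50% of their listed neighbours lay partly in groups. Joined where less than 10 kb apart, they formed 13 stretches, and 6 of these held 2 or more such sites and 18 of the 25 together. Some of these sites lie a few bases apart and share neighbours, so that they fall under the cut together. The other members were not joined in this way, so whether the 25 are more grouped was not tested. The cut of 50% and the joining distance were chosen after the values were seen, so the stretches are a description. Median depth at listed cytosines ran between 40 and 69 reads in ΔlaeA and between 44 and 69 reads in WT over the 13 stretches, and between 51 and 62 reads in ΔlaeA and 52 and 68 reads in WT over the 6. The lowest ΔlaeA values were those of replicate 2 in single-site stretches on chromosome 5, with 40 reads against 55 and 61 in WT, and on chromosome 7, with 43 reads against 58 and 65 in WT.

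On chromosome 1 from 2976896 to 2981001, running into MYCTH_62778, 5 members lay within 4106 bp. ΔlaeA replicates 1 and 2 listed 176 and 192 cytosines at median depths of 60 and 54 reads, against 545 and 606 at 56 and 59 reads in WT. At the 64 cytosines shared by all libraries the pooled level was 7.81% and 7.79% in ΔlaeA, against 13.6% and 13.6% in WT. Of its 27 clear WT sites, 14 were in both ΔlaeA lists, so more clear WT sites than the 5 members were missing from at least 1 ΔlaeA list.

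The thinning ended within a short distance on both sides. Over the 7 kb from 3 kb before to 4 kb after the centre of this stretch, ΔlaeA listed 268 and 267 cytosines, against 716 and 796 in WT. Over the 5 kb before it ΔlaeA listed 944 and 905, against 1001 and 998 in WT, and over the 4 kb after it 715 and 737, against 766 and 764. The strains thus came close together again in the flanks, and the flank borders were read off the profile.

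On chromosome 7 from 1388557 to 1389565 the 2 CG members near MYCTH_2316515 marked the strongest thinning of the 13 stretches. ΔlaeA listed 6 and 5 cytosines there, against 107 and 85 in WT, at median depths of 60 and 58 reads against 58 and 68. Over 4 kb from 0.5 kb before to 3.5 kb after the centre, ΔlaeA listed 20 and 18 cytosines, against 280 and 227 in WT. The dense 1.5 kb that began 4 kb after the centre held 297 and 301 in ΔlaeA, against 279 and 295 in WT. A dense neighbouring stretch was thus listed in full in both strains, while the thinly methylated side of the same block was almost empty in ΔlaeA.

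On chromosome 2 from 3053818 to 3057517, ΔlaeA listed 161 and 131 cytosines, against 421 and 444 in WT. On chromosome 5 from 3708903 to 3711429, near MYCTH_2129393, it listed 88 and 69, against 257 and 316 in WT. On chromosome 6 from 3293390 to 3294419 it listed 112 and 76, against 164 and 205 in WT. Each stretch held 3 members. ΔlaeA listed fewer cytosines than either WT library in all 13 stretches, which the choice of sites by thinned neighbours largely fixes.

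The stretch on chromosome 3 from 2158761 to 2163443 kept more, with 608 and 607 listed cytosines in ΔlaeA against 1001 and 982 in WT. It held 5 members, 2 of them with thinned neighbours. Levels at its 321 shared cytosines were 9.90% and 10.2% in ΔlaeA, against 16.6% and 15.8% in WT. The 6 stretches had a low pooled level of their listed cytosines in WT, between 7.58% and 12.4%. That is below the 14.6 and 14.7% over all listed cytosines of the WT libraries. The single-site stretches had between 7.40% and 14.7% in WT, so a low level was not particular to the 6.

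**Figure D4:**
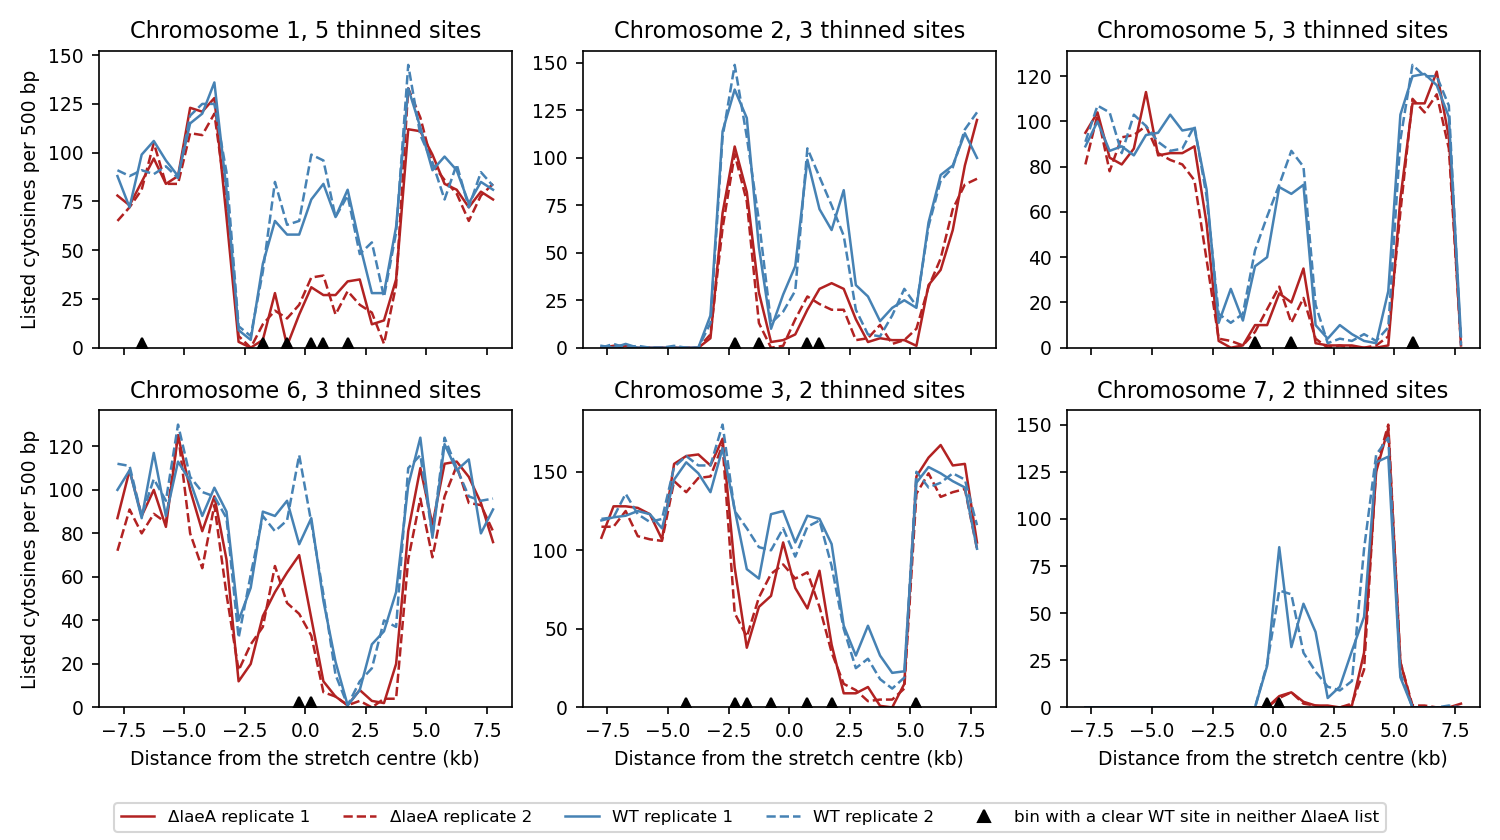
Listed cytosines per 500 bp (y axis) by distance from the centre of each stretch in kb (x axis) for the 6 stretches with 2 or more thinned sites, in ΔlaeA (red) and WT (blue); solid lines are replicate 1, dashed lines replicate 2, and triangles mark bins with a member. On chromosome 7 the ΔlaeA lines stay near 0 until 3.5 kb, with 20 and 18 listed cytosines against 280 and 227 in WT, and meet the WT lines in the dense part after 4 kb.

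The other cytosines around the members were also compared in a test across the genome. Non-overlapping 1-kb windows were tested with edgeR's quasi-likelihood test on the reads, methylated or not, of cytosines listed in all 4 libraries, with Benjamini-Hochberg adjustment at 0.05 over 10187 windows. Members never enter it, since ΔlaeA does not list them. Of all windows, 360 were called lower in ΔlaeA (3.53%) and 108 higher (1.06%), and of the 371 tested windows that hold a member, 58 were called lower (15.6%) and none higher. Without adjustment, at p under 0.05, 141 of them were lower and 5 higher. The rule read the same contrast, so the larger share among windows with a member is given beside the background and nothing is read from it.

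Windows with a member had a median difference, ΔlaeA minus WT, of -1.12 percentage points (lowest -10.7, highest 2.60), against -0.48 points over all windows. In 84.9% of them the ΔlaeA mean was lower, against 68.5% of all windows. The number of calls depended on both WT libraries: without WT replicate 1 the test called 113 windows lower, 30 of them with a member, and without WT replicate 2 it called 95 and 25. With each library's overall level as an offset, 241 windows were called lower and 189 higher, against 360 and 108 without it, and windows with a member gave 47 lower and 2 higher.

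**Figure D5:**
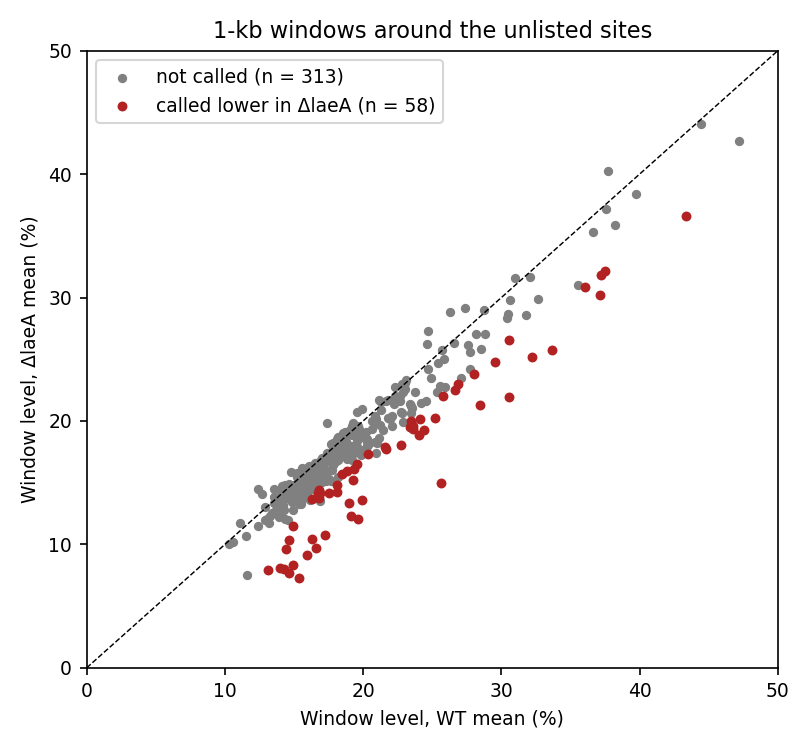
Mean methylation level (%) of the 2 ΔlaeA libraries (y axis) and of the 2 WT libraries (x axis) in each of the 371 tested 1-kb windows that hold a member, over cytosines listed in all 4 libraries; red windows were called lower in ΔlaeA by edgeR and the dashed line is equality. The 58 red windows all lie below the line, and 313 windows were not called.

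The 4-member locus on chromosome 6 lay in the window from 1622001 to 1623000, with 14.6% and 15.8% in ΔlaeA against 18.7% and 19.8% in WT (edgeR adjusted p = 0.00203). The window on chromosome 4 from 1336001 to 1337000, with 3 members, had 11.9% and 12.2% in ΔlaeA against 19.3% and 20% in WT (edgeR adjusted p = 6.16e-07). The window on chromosome 6 from 3293001 to 3294000 had 10.4% and 9.05% in ΔlaeA against 17.0% and 16.2% in WT (edgeR adjusted p = 4.20e-05). All 3 windows with 3 or more members were thus among those called lower, as were 3.53% of all windows. These windows were picked by members that the same contrast defined, so nothing is read from their calls.

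By contrast the pair on chromosome 1 in the window from 338001 to 339000 had 22.2% and 21.1% in ΔlaeA against 21.5% and 21.8% in WT (edgeR adjusted p = 0.992). At the 55 shared cytosines close to that pair, however, the pooled level was lower in ΔlaeA. It was 22.8% and 22.1% there, against 26.3% and 24.7% in WT. The pair on chromosome 3 in the window from 2785001 to 2786000 had 29.1% and 29.2% in ΔlaeA against 27.7% and 27.0% in WT (edgeR adjusted p = 0.358). The unlisted sites there stood in windows that the test did not call. Of the 17 tested windows with 2 or more members, 7 were called lower, against 3.53% of all windows, and the same limit holds.

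Some of the windows that had thinned most fell short of the filter of the main test. The pair on chromosome 7 and the members on chromosome 1 at positions 2977396 and 2978402 lay in windows with fewer than 10 cytosines listed in all 4 libraries. In the same stretch, the window on chromosome 1 from 2979001 to 2980000 kept 29 shared cytosines, with 7.65% and 8.22% in ΔlaeA against 12.9% and 13.3% in WT (edgeR adjusted p = 0.000961). In all, 377 windows held a member and 6 of them fell short of 10 shared cytosines. With a minimum of 1 shared cytosine all 377 were tested and 62 were called lower (16.4%), against 3.62% of all windows then tested. The same limit holds for these calls.

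The authors deposited 283 regions that they called differentially methylated between the strains, each for 1 context. Whatever the context of the region, 39 of the 400 sites (9.75%) and 0.871% of kept sites lay inside one, and 30 sites (7.50%) lay in a region of their own context. The 36 regions with a member all had the lower mean in ΔlaeA, as had 216 of all 283 regions (76.3%), and 9 of the 36 held members of another context only. Of the kept sites inside regions, 88.3% lay in one with the lower mean in ΔlaeA. The regions were called on these libraries, so the overlap describes the same contrast again. On chromosome 7 from 1388977 to 1389476 the authors' mean over the CG cytosines was 1.03% in ΔlaeA against 4.38% in WT, and on chromosome 1 from 2979358 to 2980207 their mean over the CHH cytosines was 2.61% in ΔlaeA against 5.53% in WT. How much of such low means is unconverted cytosine was not tested.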

How the data were processed

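Whole-genome bisulfite libraries, 2 of ΔlaeA and 2 of WT, were grouped by their titles. Per the submitters' processing notes, FastQC 0.11.5 and Bismark 0.16.3 were used. For each library the authors deposited a list of called cytosines with the counts of methylated and unmethylated reads, the level as a fraction, and a p-value and adjusted p-value of the call. The authors also deposited regions with a mean level per strain as a fraction, replicates pooled, and columns of their own difference and area score, which were not used. The genome build was not given in the sources used here. The chromosomes carry the RefSeq names of assembly ASM22609v1, from which gene positions were taken, and neither products nor sequences were used here.

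The members, the gene lists and the settings were chosen with earlier results of these data known. Lists were joined by position and strand. Named were the 12 loci with most members, loci with at least 3 members in genes, the 10 members with the highest mean WT level that had a neighbour of at least 20 reads in both ΔlaeA libraries, 3 sites on each side of the level threshold, and genes with at least 3 members. The window test used R 4.3.3 and edgeR 4.0.16 (glmQLFit on methylated and unmethylated counts, dispersion without trend), with at least 10 shared cytosines and 10 methylated reads, on code tested on simulated data. Thresholds, neighbour distance, window filter, level offset, replicate block and single libraries were varied. Shares have 95% Wilson intervals, which cover counting error only. Reads have no molecular identifiers. Depths summed over listed cytosines came to between 88818528 and 120404391 per library. A read counts there once for each listed cytosine it covers, so these are not numbers of reads. Members enter no test.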

Additional observations from a re-analysis of the deposited data

How the results depend on the processing

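The number of members followed the thresholds. With a minimum depth of 20 reads there were 499 members in 456 loci, and with 50 reads 110 in 108 loci, with 279780 kept sites. A minimum level of 0.10 gave 5781 members in 3959 loci with 872066 kept sites, and 0.20 gave 31 members in 30 loci with 303729 kept sites. The exchanged set, varied after seeing the data, held 31 sites at 50 reads, 3312 at 0.10 and 21 at 0.20, against 187. Leaving out 1 library gave between 3258 and 7510 members in between 2502 and 4460 loci, between 524540 and 712694 kept sites and between 2182 and 2799 sites of the exchanged set, since the rule then asks for fewer libraries. The raw member counts were above those of the exchanged set in each of these settings, by 1.30 to 3.55 times. These are ratios of counts and not of shares. The main counts came from 532050 clear WT sites and 456181 clear ΔlaeA sites. Without a WT library, members need fewer clear libraries and the exchanged set needs fewer absences. Without a ΔlaeA library the reverse holds. Settings that leave out 1 library thus do not compare the directions on equal terms. Joining at 200 or 1000 bp gave 384 or 359 loci, and 389 or 398 members had neighbours in both ΔlaeA libraries within 20 or 100 bp.

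Window calls numbered 443 to 493 with other minimum numbers of cytosines, against 468, and 430 with the level offset. Leaving out 1 library gave between 130 and 477 windows called, and between 25 and 54 with a member called lower, and the low values came without WT replicate 2. The replicate number could not be shown to pair the libraries: deviations of same-numbered libraries correlated at r = 0.0018 over windows, and the replicate block gave 478 calls, 58 of them lower with a member. No cause of these shifts was tested beyond what each setting itself changes. Depth limits the members, since a level of 15% at 30 reads rests on few methylated reads.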
